A study of Mus musculus with 6 samples.

Results

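Gene expression of hematopoietic stem and progenitor cells was compared with that of Ly6G+ myeloid cells from bone marrow of mice with the same mutations, over 6 of the 6 RNA sequencing libraries of the series. The progenitors, named HSCPs in the labels, were taken from marrow by positive selection for CD117, the receptor for stem cell factor encoded by Kit, and the mutant clone was then sorted by flow cytometry. Mutant cells bearing Ly6G, a surface protein of the granulocyte lineage, were sorted by flow cytometry as well. The 2 HSCP libraries (1 with vehicle, 1 with Mdivi-1) were set against the 4 Ly6G+ libraries (2 with vehicle, 2 with Mdivi-1). All groups came from C57BL/6 mice with CBL and RUNX1 mutations, so both populations were mutant and no wild-type cells were compared. Mdivi-1 was developed against Drp1, the GTPase that cuts mitochondria in fission. The sources used here do not give its dose, the ages of the mice or how the mutations were introduced. The marrow came from individual mice, but no label ties a library to a mouse. The spread behind each p-value is therefore that between these libraries, which may be partly technical.

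Neutrophils arise from marrow progenitors through a fixed order of stages. Promyelocytes fill the primary (azurophil) granules with myeloperoxidase and serine proteases, myelocytes and metamyelocytes fill the secondary (specific) granules with lactoferrin and antimicrobial peptides, and band and segmented cells add the tertiary (gelatinase) granules and the receptors of the mobile phagocyte. Granule content thus records the stage at which each gene was transcribed, and cells leave the cell cycle before the last of these stages. Transcription factors of the C/EBP family, PU.1 and GFI1 direct this sequence.

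Values are deposited TPM, the share of transcripts corrected for gene length, divided by a factor per library and called scaled TPM. Differences are Ly6G+ minus HSCP on log2(scaled TPM + 1), which understates the change of low genes. The test covered 12338 genes and called 4086 (33.1%) higher and 4283 (34.7%) lower in the Ly6G+ cells (limma, adjusted p below 0.05). Of these, 1522 (12.3% of genes tested) were higher and 1207 (9.78%) lower by at least 2-fold. The HSCP and Ly6G+ values did not overlap for 8939 genes (72.5%), so a lack of overlap was common. The median difference over all genes was -0.03, and it was -0.35 on TPM as deposited, where 30.6% of calls were higher in place of 48.8%. On that scale the medians of the 39 gene lists used below shifted by -0.10 to -0.37. Because so many genes differed, counts of a gene list are read against these shares, and levels are relative to all other transcripts. Fewer cells of a type and less RNA per cell cannot be told apart in such bulk samples. Between 11456 and 11930 genes reached 1 TPM in a library, and the read depth behind the values is unknown. Strand was not stated, so overlapping antisense genes cannot be told apart.

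The sorting markers separated the populations, as the selection required. Kit stood at 61.1 and 54.8 scaled TPM in HSCP vehicle and Mdivi-1, and at 11.01 and 14.7 in the Ly6G+ libraries with vehicle and 10.6 and 9.91 in those with Mdivi-1. Ly6g stood at 158 and 76.1 scaled TPM in HSCP, and at 863, 875, 883 and 728 in the Ly6G+ libraries in the same order. Both HSCP libraries thus held Ly6g transcripts, with more in the vehicle library. Purity of the CD117 selection was not given in the labels, and the part of Ly6G+ cells in the HSCP values was not tested. The stage of maturation in each population was read from gene lists.

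Genes of stem and progenitor cells were lower in Ly6G+. Of 34 tested members 28 were lower, 2 higher and 4 not called, 20 were lower by at least 2-fold, and the median difference was -1.11. Kit, on which the cells were selected, belongs to the list, and without it 27 of 33 were lower, 19 of them by at least 2-fold (median -1.05). Of the 34 tested, 2 were below 1 TPM in all Ly6G+ libraries, so that they passed the filter through HSCP alone. Cd34, a sialomucin of immature blood cells (mm10 chromosome 1, 194938819 to 194961279), stood at 244 and 213 scaled TPM in the HSCP libraries, and at 67.1, 62.7, 52.1 and 53.99 in Ly6G+. Every HSCP value lay above every Ly6G+ value (difference -1.94, SE 0.06, limma adjusted p = 9.21e-06). The receptor gene Cd27 fell from a mean of 21.7 to 3.298 scaled TPM (difference -2.40), and the mucin gene Muc13 from 48.4 to 8.46 (-2.39). Sox4, which encodes a transcription factor of immature cells, differed by -2.09, and Adgrg1, which encodes an adhesion receptor of stem cells, by -1.996. Flt3, the receptor of multipotent progenitors, was lower by a smaller margin, at 13.9 and 17.3 scaled TPM in HSCP and 7.28, 7.04, 7.61 and 6.63 in Ly6G+ (difference -1.02). Mecom, a gene of long-term stem cells named after its values were seen, was near the floor in both populations (means of 0.863 and 0.728 scaled TPM, not called).

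**Figure D1:**
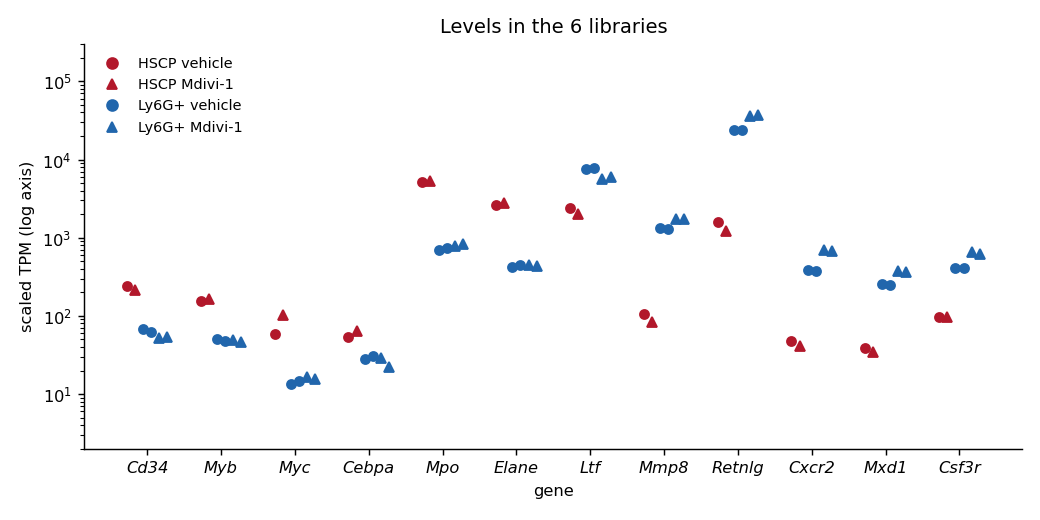
Scaled TPM (log axis) of 12 genes in the 6 libraries, with HSCP in red and Ly6G+ in blue, circles for vehicle and triangles for Mdivi-1. The progenitor and primary granule genes Cd34, Myb, Myc, Cebpa, Mpo and Elane sit higher in both HSCP libraries, and Ltf, Mmp8, Retnlg, Cxcr2, Mxd1 and Csf3r higher in all 4 Ly6G+ libraries.

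Transcription factors of the myeloid lineage differed in both directions. Of 33 tested, 23 (69.7%) were higher and 8 (24.2%) lower in Ly6G+ (median 0.86), beside 33.1% and 34.7% of all genes. Myc, the driver of growth and ribosome production, stood at 58.6 and 103 scaled TPM in HSCP vehicle and Mdivi-1 and at 13.3, 14.9, 16.6 and 15.8 in Ly6G+ (difference -2.29, SE 0.14, limma adjusted p = 3.86e-05). Its antagonist Mxd1, which takes the shared partner MAX as cells differentiate, had the reverse order, with 38.5 and 35.05 scaled TPM in HSCP and 254, 246, 371 and 359 in Ly6G+. Its difference of 3.005 (SE 0.15, limma adjusted p = 1.86e-05) was the largest on this list. Neither gene's HSCP and Ly6G+ values overlapped.

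Gfi1, a repressor needed for early granulocyte commitment, fell from a mean of 67.8 to 18.2 scaled TPM (-1.85), and Myb, a factor of proliferating progenitors, from 158 to 48.3 (-1.69). The C/EBP family did not move as one. Cebpa, which starts the granulocyte program, was lower in Ly6G+ (-1.09; 54.5 and 63.5 scaled TPM in HSCP, 27.9, 30.6, 28.6 and 22.1 in Ly6G+). Cebpd and Cebpb, members linked to later and inflammatory stages, were higher by 1.09 and 1.03. Cebpe, the factor of secondary granule genes, stood at 197 and 173 scaled TPM in HSCP and at 302, 341, 224 and 189 in Ly6G+, so that its groups overlapped (difference 0.48, limma adjusted p = 0.0156). That call was lost without the HSCP vehicle library, where the difference was 0.24, on TPM as deposited (0.11) and without treatment as a covariate. Spi1, which encodes PU.1, a factor of early myeloid commitment, was higher (1.17). The C/EBP genes other than Cebpa, and Spi1, were named after their values were seen. Other members with large rises were Fosl2 (2.35), Klf6 (2.24) and Bcl6 (2.17), which encode an AP-1 subunit, a Krüppel-like factor and a zinc finger repressor.

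The 3 granule classes differed in direction and size. Among primary granule genes 9 of 15 were lower, 3 higher and 3 not called in Ly6G+ (median -1.21). Secondary granule genes were higher in 16 of 17 cases with none lower (median 1.64), and genes of tertiary granules and late maturation in 36 of 37 with none lower (median 3.30). At least 2-fold higher were 1 primary, 14 secondary and 35 late genes. The order of the medians, primary below secondary below late, was the same within the vehicle libraries (-1.64, 1.66 and 2.97) and within the Mdivi-1 libraries (-0.77, 1.69 and 3.60).

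Mpo, the gene of myeloperoxidase (chromosome 11, 87793581 to 87804413), stood at 5097 and 5294 scaled TPM in HSCP and at 701, 729, 788 and 825 in Ly6G+. The neutrophil elastase gene Elane (chromosome 10, 79886247 to 79888215) stood at 2594 and 2749 in HSCP and at 425, 444, 451 and 439 in Ly6G+. Levels in Ly6G+ were low against HSCP and close to each other, and no groups overlapped (Mpo -2.77, SE 0.055, limma adjusted p = 7.25e-06; Elane -2.60, SE 0.05, limma adjusted p = 7.25e-06). The proteinase 3 gene Prtn3 (-2.52), the cystatin F gene Cst7 (-2.36) and the cathepsin G gene Ctsg (-2.28) followed. Across the 9 lower members, Ly6G+ held a median of 19.6% of the HSCP level with vehicle and 18.6% with Mdivi-1. Lysozyme, a protein of all 3 granule classes, went the other way. Lyz2 rose from 4126 and 3320.3 scaled TPM to 17843, 17355, 13758 and 13977 (difference 2.08), although 67.2% of its 31-mers are unique and reads shared with a similar gene make its level uncertain. Ctsc, whose product activates the granule serine proteases, was also higher (0.78), unlike the protease genes themselves.

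Ltf, the gene of lactoferrin, stood at 2411 and 2034 scaled TPM in HSCP and at 7568, 7701, 5641 and 5908 in Ly6G+ (difference 1.58, limma adjusted p = 1.02e-05). The cathelicidin gene Camp already stood at 8014 and 6827 in HSCP and at 14423, 15631, 10549 and 9899.8 in Ly6G+ (0.74, limma adjusted p = 0.000423). Both Ly6G+ groups were higher for both genes, yet both were already abundant in the HSCP libraries. Ltf and Camp are the fixed lineage markers. The collagenase gene Mmp8 had the largest difference of the list (3.99, SE 0.16, limma adjusted p = 1.14e-05), with 106 and 83.9 scaled TPM in HSCP and 1333, 1306, 1760.2 and 1725 in Ly6G+. Ifitm6, which encodes an interferon-induced type membrane protein of myeloid cells, differed by 3.03 and Ceacam10, which encodes a member of the carcinoembryonic antigen family, by 2.87. Within this list the differences thus ran from 0.74 for Camp to 3.99 for Mmp8 among the called members.

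Late genes showed the widest gap. Retnlg, which encodes a resistin-like secreted protein (chromosome 16, 48872621 to 48874496), stood at 1608 and 1201 scaled TPM in HSCP and at 24013, 23852, 36295 and 36982 in Ly6G+. Its difference was 4.41 (SE 0.23, limma adjusted p = 4.28e-05). The interleukin-1 beta gene Il1b stood at 8.58 and 10.5 in HSCP and at 144, 143, 359 and 353 in Ly6G+ (4.43). Both genes were lowest in the HSCP libraries and highest in the Ly6G+ Mdivi-1 libraries. The gelatinase gene Mmp9, the marker of tertiary granules, differed by 3.504 and the chemokine receptor gene Cxcr2, which guides mature cells out of marrow, by 3.49. Stefin genes of chromosome 16, which encode cysteine protease inhibitors, were at the top of the list, with Stfa2 at 4.58 and Stfa2l1 at 4.53, but they share sequence (66.7% and 58.4% unique 31-mers) and their split is uncertain. Phospho1 (3.99) has 12.9% unique 31-mers and is uncertain for the same reason.

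**Figure D2:**
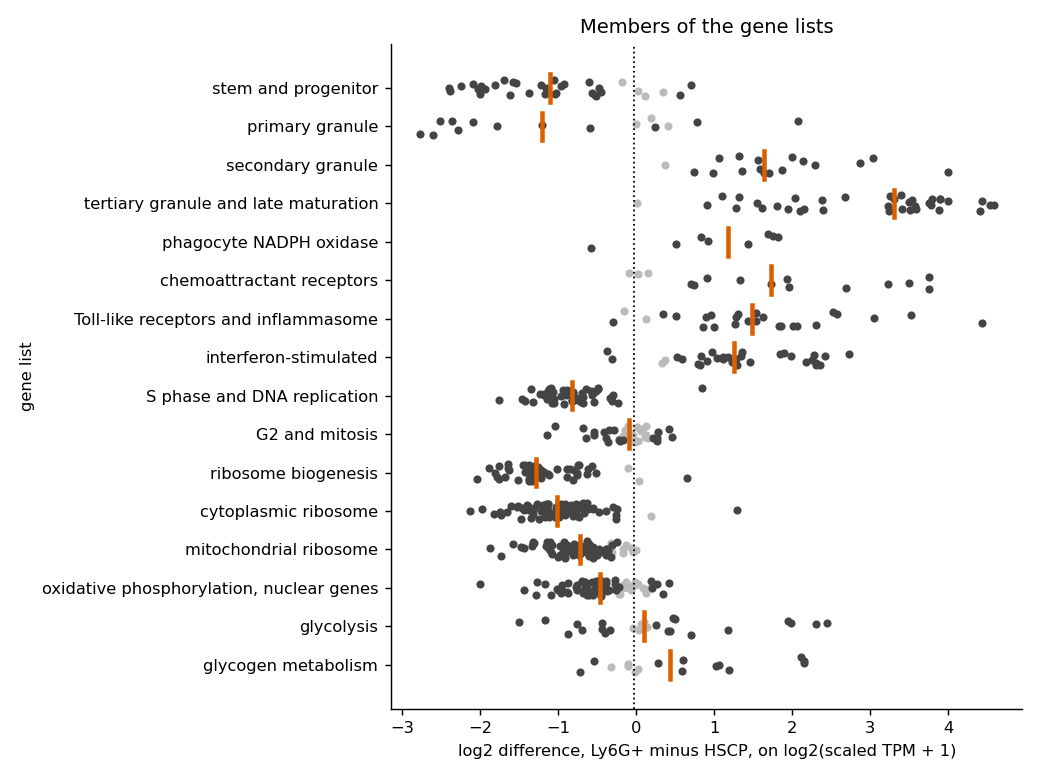
Log2 difference (Ly6G+ minus HSCP, on scaled TPM + 1) of each tested member of 16 gene lists. Dark points passed the limma test and grey points did not, the orange bars mark list medians and the dotted line the median of all genes tested; the granule lists step from -1.21 (primary) to 1.64 (secondary) and 3.30 (late), and S phase (-0.83) lies below G2 and mitosis (-0.09).

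Promoter sequences are shown for the granule genes, because most called members of each class differed in 1 direction, with Lyz2 and Ctsc among the exceptions in the primary class. Windows of 300 bases, from 250 before to 50 after the first listed RefSeq start (GRCm38.p6), were at hand for 9194 of the 12338 tested genes. Capitals in the windows mark the C/EBP core TTNCNNAA and the PU box GAGGAA read on either strand, where N is any base. The first set holds the primary granule genes with the largest falls, and the second the secondary granule and late genes with the largest rises among those with at least 80% unique 31-mers. Each is written 5′ to 3′ on its gene's strand.
Mpo: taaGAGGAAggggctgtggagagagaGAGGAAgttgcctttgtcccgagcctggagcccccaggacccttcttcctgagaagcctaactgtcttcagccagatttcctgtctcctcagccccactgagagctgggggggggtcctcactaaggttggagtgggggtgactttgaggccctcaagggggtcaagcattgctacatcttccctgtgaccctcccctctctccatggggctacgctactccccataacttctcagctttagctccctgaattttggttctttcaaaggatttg
Elane: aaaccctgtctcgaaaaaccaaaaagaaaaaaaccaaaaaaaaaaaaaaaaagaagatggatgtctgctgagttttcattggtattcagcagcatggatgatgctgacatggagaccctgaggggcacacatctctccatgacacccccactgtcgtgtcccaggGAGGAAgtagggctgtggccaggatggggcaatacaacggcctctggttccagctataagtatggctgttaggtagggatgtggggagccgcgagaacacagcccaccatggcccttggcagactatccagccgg
Prtn3: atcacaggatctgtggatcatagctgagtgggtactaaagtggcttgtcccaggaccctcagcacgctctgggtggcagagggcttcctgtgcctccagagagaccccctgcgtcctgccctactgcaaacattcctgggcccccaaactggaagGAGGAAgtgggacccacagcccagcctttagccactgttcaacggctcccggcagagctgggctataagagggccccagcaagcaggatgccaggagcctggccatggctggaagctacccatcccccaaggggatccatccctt
Mmp8: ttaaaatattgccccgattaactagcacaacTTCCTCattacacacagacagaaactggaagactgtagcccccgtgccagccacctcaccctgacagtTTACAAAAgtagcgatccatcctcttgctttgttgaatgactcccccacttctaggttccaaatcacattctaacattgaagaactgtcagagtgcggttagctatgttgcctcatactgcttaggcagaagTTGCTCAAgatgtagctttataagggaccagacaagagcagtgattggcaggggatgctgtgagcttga
Ifitm6: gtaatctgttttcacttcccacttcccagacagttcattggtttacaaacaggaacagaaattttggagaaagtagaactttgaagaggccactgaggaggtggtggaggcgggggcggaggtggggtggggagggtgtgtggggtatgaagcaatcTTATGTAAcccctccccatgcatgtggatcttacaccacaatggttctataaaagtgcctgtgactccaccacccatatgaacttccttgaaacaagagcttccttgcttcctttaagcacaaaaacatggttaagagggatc
Il1b: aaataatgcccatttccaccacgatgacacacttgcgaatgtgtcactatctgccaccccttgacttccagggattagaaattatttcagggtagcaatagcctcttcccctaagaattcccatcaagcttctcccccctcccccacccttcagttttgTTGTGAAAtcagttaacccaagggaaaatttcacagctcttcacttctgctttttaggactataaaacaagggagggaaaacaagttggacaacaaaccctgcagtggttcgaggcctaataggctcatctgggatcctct
Retnlg: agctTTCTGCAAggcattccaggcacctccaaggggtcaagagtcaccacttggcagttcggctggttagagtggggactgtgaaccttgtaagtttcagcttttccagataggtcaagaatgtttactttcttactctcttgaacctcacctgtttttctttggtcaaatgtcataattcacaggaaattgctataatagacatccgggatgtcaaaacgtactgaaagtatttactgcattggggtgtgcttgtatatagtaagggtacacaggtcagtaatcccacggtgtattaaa
Mpo spans chr11:87793534-87793833, Elane chr10:79886062-79886361 and Prtn3 chr10:79879417-79879716, all on the + strand. Mmp8 spans chr9:7558179-7558478 and Retnlg chr16:48872358-48872657 on the + strand, and Ifitm6 chr7:141016843-141017142 and Il1b chr2:129371090-129371389 on the - strand. The windows of Mpo, Elane and Prtn3 held 2, 1 and 1 PU boxes and 0 C/EBP cores each. Those of Mmp8, Ifitm6, Il1b and Retnlg held 2, 1, 1 and 1 C/EBP cores, and 1 PU box in all, that of Mmp8. Elane and Prtn3 are neighbours on chromosome 10, and the first bases of their boxes lie at -85 and -95 from the start.

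Over whole lists, a C/EBP core was present in 6 of 13 primary granule windows (46.2%), 11 of 14 secondary granule windows (78.6%) and 15 of 29 late windows (51.7%), beside 32.1% of all tested genes and 40.7% of all 27025 genes with a window. A PU box was present in 61.5%, 50% and 58.6% of the same windows, beside 27.0% of tested genes and 28.3% of all genes. The 1082 windows of genes at least 2-fold higher in Ly6G+ held a C/EBP core in 37.2% and a PU box in 32.9% of cases, and the 926 windows of genes at least 2-fold lower in 33.5% and 26.1%. A match is a run of letters in this window and does not show binding.

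The level of the granule genes in HSCP was compared with that in Ly6G+ of the same treatment. For the 16 higher secondary granule genes HSCP held a median of 31% of the Ly6G+ level with vehicle and 30% with Mdivi-1. For the 36 higher late genes the medians were 12.4% and 7.67%, and 11 and 23 of them were below 10%. The share was smaller with Mdivi-1 in 34 of 36 late genes and in 8 of 16 secondary granule genes. Between the treatments, the HSCP levels of the late genes differed by a median of 0.0014 on the log2 scale, and the Ly6G+ means by 0.58, with 30 of 36 higher with Mdivi-1. HSCP has 1 library per treatment, so this pattern has no replicate check there.

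**Figure D3:**
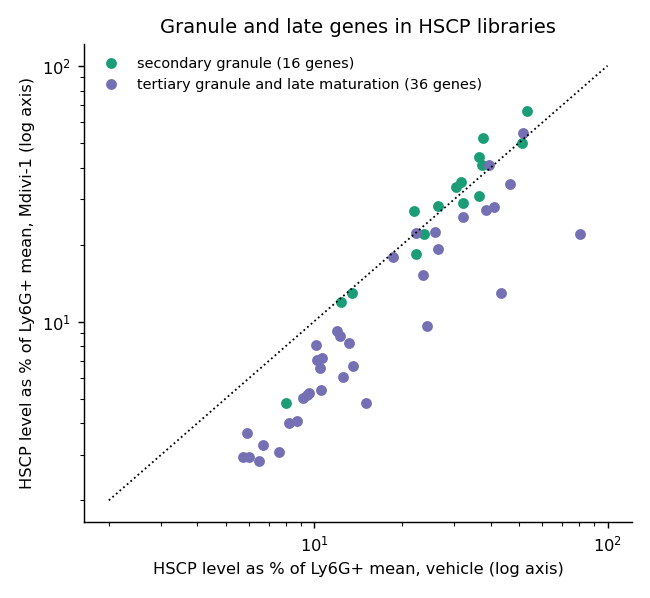
Level of each secondary granule gene (16, green) and late gene (36, purple) in HSCP as a percentage of the Ly6G+ mean of the same treatment, vehicle on the x axis and Mdivi-1 on the y axis (both log axes). The dotted line marks equal percentages; 34 of 36 late genes lie below it, and 8 of 16 secondary granule genes.

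The machinery of the mature phagocyte was higher in Ly6G+. Of the 8 genes of the NADPH oxidase, which makes superoxide in the phagosome, 7 were higher and 1 lower (median 1.18). The catalytic subunit gene Cybb (1.76) and the cytosolic subunit gene Ncf4 (1.69) were among the higher ones, and the proton channel gene Hvcn1, which balances the charge of the oxidase, was lower (-0.58). Chemoattractant receptors were higher in 12 of 15 cases with none lower (median 1.73). Among them, Ccr1, a receptor for CC chemokines, stood at 6.31 and 10.8 scaled TPM in HSCP and at 79.6, 76.1, 198 and 199.95 in Ly6G+, and both Ly6G+ groups lay above HSCP (3.76). Fpr1, the receptor for bacterial formyl peptides, differed by 3.75 and the complement receptor gene C5ar1 by 2.69. Cxcr4, which holds cells in marrow, was higher as well (0.74; named after its values were seen), by less than Cxcr2.

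Fc receptors and their signalling chains were higher in 13 of 14 cases and lower in 1 (median 1.58), led by the Src family kinase gene Fgr (2.56) and the inhibitory receptor gene Pirb (2.54, 56.2% unique 31-mers). Toll-like receptor and inflammasome genes were higher in 23 of 26 and lower in 1 (median 1.49). Il1rn, the antagonist of the interleukin-1 receptor, rose beside Il1b (3.53), and so did the RNA sensor genes Tlr13 (3.04) and Tlr8 (2.58). Il1r2, a decoy receptor that binds interleukin-1 without signalling, stood at 5.35 and 10.8 scaled TPM in HSCP and at 36.4, 34.7, 217 and 232 in Ly6G+ (3.39). The signalling receptor Il1r1 had the reverse order (mean 3.68 and 1.22; -1.07; named after its values were seen).

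Receptors for growth factors and cytokines were mostly higher. Of 29 tested, 20 were higher and 6 lower (median 0.91), and without Kit, the selection marker, 20 and 5 of 28 (median 0.96). Csf3r, the receptor for the granulocyte factor G-CSF (76.9% unique 31-mers), stood at 96.3 and 97.1 scaled TPM in HSCP and at 408, 409, 662 and 615 in Ly6G+ (2.39, limma adjusted p = 3.02e-05). Il18rap (2.31) and Il17ra (2.03), chains of the receptors for interleukin-18 and interleukin-17, were higher, and Il3ra, a chain of the receptor for the progenitor factor interleukin-3, was lower (-0.85). Adhesion genes were mixed, with 14 of 22 higher (63.6%) and 5 lower (22.7%), beside 33.1% and 34.7% of all genes (list median 0.91). The leukocyte integrin genes Itgam (3.09, 31.9% unique 31-mers) and Itgb2 (2.02), which form the receptor Mac-1, and the junctional protein gene Jaml (3.02) were higher. Vcam1 (-1.69), Icam2 (-1.48) and Pecam1 (-0.96), adhesion molecules also made by macrophages or endothelium, were lower.

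Interferon-stimulated genes, which limit viruses, were higher in 28 of 32 cases and lower in 2 (median 1.25). Rtp4 (2.72), the antiviral radical enzyme gene Rsad2 (2.42) and Ifi27l2a (2.36) led the list. Rsad2 stood at 9.27 and 5.49 scaled TPM in HSCP and at 50.4, 48.6, 34.8 and 38.8 in Ly6G+, with both HSCP values below all Ly6G+ values and the Mdivi-1 library of each population below its vehicle libraries. The list held an IRF core (GAAA, NN, GAAA, on either strand) in 13 of 21 promoter windows (61.9%), beside 3.37% of tested genes. Genes of autophagy and the lysosome were higher in 25 of 32 and lower in 2 (median 0.70), with the conjugation enzyme gene Atg3 (1.32) and the lysosome regulator genes Tfe3 (1.31) and Tfeb (1.10). Gabarapl1, a member of the same ATG8 family as the higher gene Map1lc3b (1.20), was lower (-1.47).

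The cell cycle lists separated. DNA replication genes were lower in Ly6G+ in 47 of 48 cases (median -0.83). None of these 48 genes had overlapping groups, while groups did not overlap for 72.5% of all genes tested. The polymerase gene Pold1 stood at 84.2 and 89.3 scaled TPM in HSCP and at 32.4, 36.1, 32.7 and 33.2 in Ly6G+ (-1.34, limma adjusted p = 2.31e-05). The genes of the uracil glycosylase Ung (-1.76), the replication factor Gins2 (-1.46) and the polymerase subunit Pola2 (-1.42) had larger falls. The 1 higher gene was E2f2 (0.85), a transcription factor of the E2F family, whose member E2f1 was lower (-1.13; named after its values were seen). An E2F core, TTTNNCGC on either strand, was present in 35.9% of 39 windows of this list, beside 8.68% of tested genes.

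Genes of G2 and mitosis did not follow. Of 40 tested, 14 (35%) were lower, 6 (15%) higher and 20 not called (median -0.09). Over all genes 34.7% were lower and 33.1% higher. On TPM as deposited 32 mitosis genes were lower and 0 higher with a median of -0.45, where S phase stood at -1.19. Relative to all genes the medians were -0.06 for mitosis and -0.80 for S phase, and -0.10 and -0.84 on TPM as deposited, so the gap between the lists was kept. Without HSCP vehicle 14 mitosis genes were lower and 2 higher (median -0.21), and without HSCP Mdivi-1 9 and 4 (median -0.05). The proliferation antigen gene Mki67 stood at 81.8 and 101 scaled TPM in HSCP and at 92.02, 98.5, 93.2 and 91.9 in Ly6G+, and Ccnb2, a mitotic cyclin gene, at 106 and 106 and at 115, 112, 95.6 and 99.6. Both had overlapping groups (limma adjusted p = 0.641 and 0.909), while on TPM as deposited both were called lower, at -0.31 and -0.37. They were named after their values were seen. The kinase gene Cdk1 (-0.68), the kinase subunit gene Cks1b (-1.04) and the tubulin regulator gene Stmn1 (-1.15, 77.6% unique 31-mers) were lower. Cenpe (0.26) and Cdc25b (0.21) were among the 6 higher genes. These 40 mitosis genes were taken from whole sorted populations, which hold dividing and non-dividing cells in unknown proportion.

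**Figure D4:**
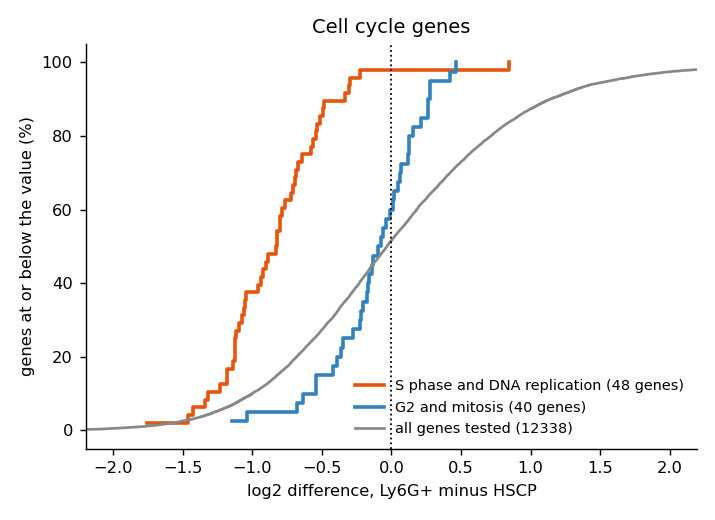
Cumulative share of genes (y axis, percent) by log2 difference, Ly6G+ minus HSCP (x axis), for S phase (48 genes, orange), G2 and mitosis (40 genes, blue) and all 12338 genes tested (grey). The S phase curve lies left of 0 but for 1 gene, E2f2, and the mitosis curve crosses 50% close to the all-gene curve.

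Genes that set entry into and exit from the cycle differed in both directions. Of 21 tested, 10 (47.6%) were higher and 6 (28.6%) lower (median 0.41), beside 33.1% higher and 34.7% lower over all genes. On TPM as deposited 8 were higher and 9 lower (median 0.11), and without Ly6G+ vehicle replicate 2 the median was 0.105 with unchanged counts. The G1 kinase gene Cdk4 stood at 390.01 and 462 scaled TPM in HSCP and at 148, 159, 159 and 157 in Ly6G+ (-1.44). Cdk6 (-1.62) and the cyclin genes Ccnd2 (-1.36) and Ccnd1 (-1.02), which pair with these kinases, were lower too. The other lower genes were E2f3 (-0.54) and E2f4 (-0.52), which encode an activating and a repressing E2F factor, and neither was called without HSCP Mdivi-1 (-0.36 and -0.37). Cdkn1b, the gene of the cycle inhibitor p27, had the reverse order, at 29.4 and 29.2 in HSCP and 76.6, 73.2, 90.3 and 93.4 in Ly6G+ (1.47). The antiproliferative genes Btg1 (1.87) and Btg2 (1.94) were higher in the same way.

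Chromatin and the nuclear envelope are reshaped as the nucleus becomes lobed. The chromatin genes had a lower median in Ly6G+, and the median of the envelope genes lay close to the -0.03 of all genes. Of 35 histone variant and chromatin genes 21 were lower, 6 of them by at least 2-fold, and 5 were higher (median -0.36). On TPM as deposited the counts were 31 and 1. The high mobility group genes Hmga1 (-1.51), Hmgn1 (-1.25), Hmgb3 (-1.08) and Hmgn5 (-1.08), whose products bind and bend DNA or bind nucleosomes, were among the 6, with Dnmt3b, a DNA methyltransferase gene (-1.51), and H1fx, a linker histone gene (-1.71). Of 22 envelope genes 9 (40.9%) were lower, 5 (22.7%) higher and 8 not called (median -0.12), beside 34.7% lower and 33.1% higher over all genes. By at least 2-fold 2 were lower and 1 higher, and on TPM as deposited 13 were called lower and 3 higher. Without HSCP Mdivi-1 the envelope median was -0.18. Lbr, which encodes the lamin B receptor needed for nuclear lobulation, stood at 155 and 155 scaled TPM in HSCP and at 252, 239, 288 and 277 in Ly6G+, which did not overlap (0.76). The lamina-associated gene Tor1aip1 was higher (1.12), and the nuclear pore genes Nup210 (-1.22) and Nup93 (-1.01) were lower.

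Genes of protein synthesis were lower in Ly6G+. Of 81 tested genes of the cytoplasmic ribosome 79 were lower, 1 higher and 1 not called (median -1.02), and of 48 ribosome biogenesis genes 45 were lower and 1 higher (median -1.28). Cytoplasmic ribosome transcripts made up 14.6% and 14.4% of deposited TPM in HSCP vehicle and Mdivi-1, and 5.62%, 5.75%, 5.56% and 5.59% in the Ly6G+ libraries. The shares did not overlap. Rps28, which encodes a protein of the small subunit, fell from a mean of 1252 to 287 scaled TPM (-2.13) and Rpl12, of the large subunit, by 1.98. The genes that did not fall were Rpl3l, higher at a mean of 0.609 and 2.97 scaled TPM (1.29), and Rpl39l, not called at 0.5403 and 0.734. These are paralogs of ribosomal protein genes known from muscle and testis, both near the floor, and they were named after their values were seen. Ribosomal proteins have many processed pseudogenes, so single members are less certain than the list.

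In ribosome biogenesis the RNA modification genes Nop10 (-2.04), Gar1 (-1.89) and Nhp2 (-1.76), 3 partners in 1 small nucleolar particle, had some of the largest falls. Nop10 stood at 81.5 and 96.1 scaled TPM in HSCP and at 15.6, 23.6, 22.5 and 22.5 in Ly6G+. Polr1b, a subunit gene of RNA polymerase I named after its values were seen, was lower (-1.65), while Polr1a, which encodes its largest subunit, was the 1 higher gene of the list (15.9 and 19.99 in HSCP, 26.1, 26.6, 31.1 and 31.5 in Ly6G+; 0.66). The MYC E box CACGTG was present in 20.9% of 43 windows of this list, beside 10.5% of tested genes. Translation factors were lower in 35 of 38 cases and higher in 3 (median -0.68). Eif3b (-1.28) and Eif1ax (-1.28), of the initiation machinery, were lower. The initiation factor gene Eif1 (1.22, 77% unique 31-mers) and Eif4ebp1, the inhibitor of the cap-binding protein (0.62), were higher.

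**Figure D5:**
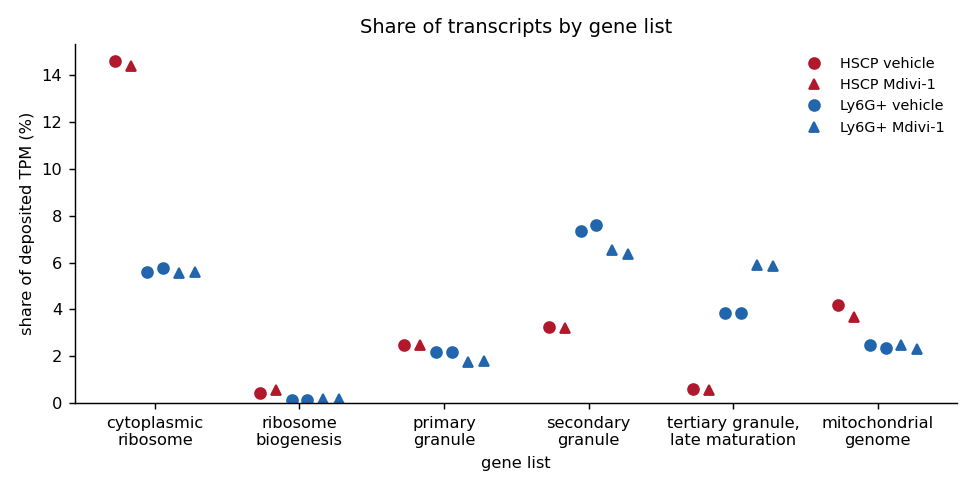
Share of deposited TPM (percent, y axis from 0) taken by 6 gene lists in each library, with HSCP in red and Ly6G+ in blue, circles for vehicle and triangles for Mdivi-1. Cytoplasmic ribosome genes held 14.6% and 14.4% in HSCP and 5.56% to 5.75% in Ly6G+, and late genes 0.589% and 0.550% against 3.85% to 5.88%.

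Mitochondrial genes, apart from those of fission and fusion, were lower in Ly6G+, with smaller median falls than the cytoplasmic ribosome. The mitochondrial ribosome had 68 of 77 lower and 0 higher (median -0.72), the nuclear genes of oxidative phosphorylation 54 of 77 lower and 5 higher (median -0.46), and the citric acid cycle 15 of 21 lower and 0 higher (median -0.44). Mrps28 (-1.87), the ATP synthase gene Atp5k (-2.004) and Idh2, the mitochondrial isocitrate dehydrogenase gene (-1.55), had the largest falls of these lists. Idh2 stood at 162 and 168 scaled TPM in HSCP and at 52.9, 54.2, 59.9 and 55.6 in Ly6G+. Of the 13 protein genes of the mitochondrial genome 8 were lower and 1 higher (median -0.33), but several share most of their 31-mers with other genes. Fission and fusion genes stayed near the shares of all genes, with 5 of 14 lower (35.7%) and 4 higher (28.6%). Over all genes tested these shares were 34.7% and 33.1%. The median of this list was -0.05, and on TPM as deposited 8 were lower and 3 higher. Without HSCP Mdivi-1, or without either Ly6G+ Mdivi-1 library, 3 were lower. The prohibitin genes Phb (-1.67, 66.2% unique 31-mers) and Phb2 (-1.15) were lower, and the fission adaptor gene Mff (0.60) and Dnm2 (0.77), which encodes a dynamin, were higher.

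Glucose genes differed in both directions. Of 25 glycolysis genes 11 (44%) were higher and 9 (36%) lower, beside 33.1% higher and 34.7% lower over all genes. The median of 0.10 turned to -0.23 on TPM as deposited, with 6 higher and 12 lower. It was -0.02 without HSCP vehicle and 0.20 without HSCP Mdivi-1. The lactate transporter genes moved in opposite directions, with Slc16a3 above Slc16a1 in every library. Slc16a1 stood at 27.4 and 31.2 scaled TPM in HSCP and at 8.60, 8.94, 10.3 and 10.9 in Ly6G+ (-1.51), and Slc16a3, suited to lactate export, at 42.6 and 39.9 and at 153, 157, 183 and 174 (1.99). Neither pair of groups overlapped. The glucose transporter genes Slc2a3 (2.30) and Slc2a6 (2.44) and the regulatory kinase gene Pfkfb4 (1.94) were higher, and the hexokinase gene Hk1 (-0.70) and the phosphofructokinase gene Pfkm (-1.17) were lower.

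Glycogen genes were higher in 9 of 16 cases and lower in 2 (median 0.43), and on TPM as deposited in 8 and 5 (median 0.08). Pygl, the liver-type glycogen phosphorylase that releases stored glucose, stood at 189 and 183 scaled TPM in HSCP and at 760.1, 765, 878 and 916 in Ly6G+ (2.15, limma adjusted p = 9.88e-06), and the brain-type Pygb was lower (-0.72). Ppp1r3b (2.15) and Ppp1r3d (2.12), which bring a phosphatase to glycogen, were higher. Cholesterol genes were lower in 11 of 21 and higher in 5 (median -0.32), with the synthesis gene Dhcr7 (-1.17) lower and Msmo1 (1.29) higher. Without HSCP vehicle the counts were 7 lower and 2 higher, and on TPM as deposited 14 and 1 (median -0.66). BCL2 family genes were higher in 4 of 14 cases and lower in 4, both shares below those of all genes. Their median of 0.11 turned to -0.24 on TPM as deposited, with 2 higher and 7 lower, and was -0.01 without HSCP Mdivi-1, with 1 higher and 2 lower. Bcl2 fell from 10.3 and 8.02 scaled TPM to 3.23, 2.94, 2.85 and 3.06 (-1.33). Mcl1, the survival gene on which neutrophils depend, rose from 116 and 109 to 349, 333, 497 and 505 (1.87). The 2 survival genes thus had opposite orders, with no overlap between groups.

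Markers of other blood cells were present in both sorts and moved in several directions. Erythroid genes were lower in Ly6G+ in 13 of 15 cases (median -0.72), with summed levels of 4610.3 and 4905 scaled TPM in HSCP and 2936 to 3562 in Ly6G+. Eosinophil genes were lower in 4 of 8 cases and higher in 1 (median -1.06), and their sums were 594 and 338 in HSCP vehicle and Mdivi-1 and 98.0 to 103 in Ly6G+. Among these 8 genes, 1 passed the filter through HSCP alone and 1 through Ly6G+ alone. The eosinophil granule gene Prg2 stood at 503 and 279.8 in HSCP and at 57.4, 64.1, 58.4 and 59.6 in Ly6G+ (-2.63). Without HSCP vehicle the eosinophil median was -0.09, but over 7 members, as the filter was applied again. Over all 8 it was -1.40 within the vehicle libraries and -0.72 within the Mdivi-1 libraries. Among monocyte and macrophage genes 7 of 15 (46.7%) were higher and 4 (26.7%) lower, beside 33.1% and 34.7% of all genes. Their median of 0.19 turned to -0.10 on TPM as deposited and was 0.41 without HSCP vehicle and 0.34 without HSCP Mdivi-1. The lower ones were Vcam1 and the complement genes C1qa (-2.17), C1qb (-1.14) and C1qc (-1.88), which are made by macrophages. Other macrophage genes were higher, with Adgre1 at 1.27, Cd68 at 1.16 and the receptor gene Csf1r at 0.86, as were the monocyte genes Ccr2 (1.73) and Ly6c2 (0.89).

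Basophil and mast cell genes were higher in 5 of 8 cases and lower in 2, with sums of 336 and 269 in HSCP and 432 to 729.9 in Ly6G+. Dendritic cell genes were lower in 7 of 13 and higher in 3, with sums of 1545 and 979.8 in HSCP and 618 to 1036 in Ly6G+. B cell genes were higher in 3 of 15 cases, a share below that of all genes, and lower in 1, with sums of 142 and 98.8 in HSCP and 97.1 to 242 in Ly6G+. The B cell count rested on single libraries, with 9 higher without HSCP Mdivi-1, 1 without HSCP vehicle, 0 without Ly6G+ vehicle replicate 1 and 1 without replicate 2, and on TPM as deposited 1 was higher and 2 lower. T and NK cell genes had sums of 11.3 and 10.3 scaled TPM in HSCP and up to 39.1 in Ly6G+. Of the 13 tested, 8 were below 1 TPM in both HSCP libraries and passed the filter through Ly6G+ alone, so no count is read from them. Megakaryocyte genes were higher in 6 of 14 cases (42.9%) and lower in 4 (28.6%), beside 33.1% and 34.7% of all genes tested. Among these 14 genes, 2 were below 1 TPM in both HSCP libraries and passed the filter through Ly6G+ alone, as did 1 of the 15 B cell genes. Groups did not overlap for 4 of the 14, while they did not overlap for 72.5% of all genes tested. The lower count was 2 without Ly6G+ vehicle replicate 1 and without Ly6G+ Mdivi-1 replicate 2. Of the 4 stromal and endothelial genes tested, 1 passed the filter through Ly6G+ alone and 1 through HSCP alone, so their calls are not counted. None of these marker lists was at 0 throughout, and the part of such cells in the differences above was not tested.

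The largest differences of all belonged to genes whose reads are shared with close copies. Rpl28-ps1, a processed pseudogene, stood at 0 in both HSCP libraries and at a mean of 296 scaled TPM in Ly6G+, and Pgam1-ps2 at means of 90.9 and 0.0576. Both have 0% unique 31-mers, as does the histone gene Hist2h2aa2 (3.85), so these values depend on how reads were divided and are uncertain. Beside the genes already described, Vat1, which encodes a vesicle membrane protein (-2.29), and Plppr3, which encodes a lipid phosphatase-related protein (-2.18), were among the largest falls, and the protease gene Asprv1 (3.79), the arginase gene Arg2 (3.90) and the inhibitory receptor gene Cd101 (3.89), a surface protein of mature neutrophils, among the largest rises.

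Whether the population difference depended on treatment was tested with an interaction term. No gene passed (0 of 12338, 0%, limma), the smallest adjusted p was 0.0567, and 1309 genes had an unadjusted p below 0.05. The spread in that test came from the Ly6G+ pairs alone, with 2 residual degrees of freedom. A count of 0 at this size does not show that the difference was the same under both treatments.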

How the data were processed

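RNA of the 6 libraries was sequenced by the authors, who deposited 1 table of 28987 genes in TPM, transcript shares corrected for length. The submitters' processing notes name bcl2fastq, CASAVA 1.8 and kallisto, with build mm10. The version of kallisto, its annotation, the strand and the summing of transcripts were not stated in the sources used. TPM carries no read totals, so depth and counting error are unknown.

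TPM were divided by median-of-ratios factors from the 14281 genes above 0 in all libraries. Genes that reached 1 TPM in 2 or more libraries were tested on log2(scaled TPM + 1) with limma 3.58.1 in R 4.3.3, with a trended and robust prior, treatment as a covariate and 3 residual degrees of freedom. P-values were adjusted by Benjamini-Hochberg over 12338 genes at a threshold of 0.05. The code of the fit was run on simulated data with independent errors drawn from the fitted variances. That run cannot show whether these libraries meet the same assumptions. Symbols (27475 matched) and positions came from GENCODE M21, on the same assembly as mm10. The share of each gene's 31-mers found in no other gene was computed, since kallisto divides reads between similar genes. Promoter windows came from RefSeq.

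The 39 gene lists, like the comparison, were chosen with earlier results of these data known, and lists are described by counts and medians without a test. The myeloid transcription factor, Toll-like receptor and cytoplasmic ribosome lists each held 1 tested gene that passed the filter through Ly6G+ alone. The chromatin and BCL2 family lists each held 1 that passed it through HSCP alone. Named genes were Kit and Ly6g, fixed markers (Cd34, Ltf, Camp, Mmp9 and Cxcr2 among them), and per list and direction up to 6 members called, without overlap and with at least 10 scaled TPM in a library. Over all genes up to 15 per direction with a mean of at least 20 scaled TPM were added. Genes outside this rule are marked in the text as named after their values were seen.

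The Ly6G+ titles carry the numbers 1 and 2. The correlation of the differences between numbers 1 and 2 with vehicle and with Mdivi-1 was -0.03 over genes, and no label says what a number marks. Alternatives covered scaling, pseudocount, filter, covariate, prior, replicate block, each treatment alone and each library left out.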

Additional observations from a re-analysis of the deposited data

How the results depend on the processing

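Counts of genes higher and lower in Ly6G+ (4086 and 4283) stayed within 1.5 times under all alternatives run. They were 2736 and 6202 on TPM as deposited, and lay between 3460 and 3964 and between 3203 and 4032 when 1 library was left out. With the replicate block within Ly6G+ they were 3968 and 4096, so the block changed neither by much, and the shared numbers do not pair samples by any label. It gave 2 interaction genes where the main model gave 0. The interaction count was also 8 with a pseudocount of 0.1 and 10 with a filter of 5 TPM, and 0 under both other scalings, without an expression filter and with a plain prior. The cause of these changes was not tested.

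Of 4086 higher and 4283 lower genes, 2736 and 4283 were called the same way on TPM as deposited, and 26 were called the other way. Up to 150 called genes named in the text were followed through the alternatives, and 0 of them changed direction. Cenpe and Cdc25b were not among them. Both lost their calls as higher on TPM as deposited, where 0 mitosis genes were called higher. Among the genes followed, Cebpe lost its call on TPM as deposited and without treatment as a covariate. It also lost it at 0.24 without HSCP vehicle and with the Mdivi-1 libraries alone. E2f3 and E2f4 lost theirs without HSCP Mdivi-1, E2f3 also with the vehicle libraries alone (-0.36). With 1 HSCP library left out or 1 treatment alone, the lone HSCP sample is assumed to vary like the Ly6G+ samples. The median of the primary granule list was -1.64 without HSCP Mdivi-1 and -0.78 without HSCP vehicle. That of the eosinophil list was -0.09 without HSCP vehicle, over 7 members in place of 8. The B cell list had a median of 1.01 without HSCP Mdivi-1 and -0.01 without HSCP vehicle. Without treatment as a covariate 3 mitosis genes were higher and 3 dendritic cell genes lower, and 3 megakaryocyte genes were higher with 0 lower. On TPM as deposited 0 oxidative phosphorylation genes were higher and 4 autophagy and lysosome genes were lower. The main limits are 2 HSCP libraries, 1 per treatment, unknown depth, and a scale in which any large group of transcripts moves the share of all others.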
